A study of Macaca mulatta with 33 samples.

Results

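Growth hormone acts on the liver through its receptor, and the liver answers by making insulin-like growth factor 1 (IGF1) and most of the proteins that carry it in blood. The 10 transcripts described here were chosen by name as parts of that axis. The rule uses no measured value, but the choice was made with earlier results of these data known. The 10 are the receptor GHR, the signal carriers STAT5A and STAT5B, the feedback brake SOCS2, the hormone IGF1, its carrier subunits IGFALS and IGFBP3, and the binding proteins IGFBP1, IGFBP2 and IGFBP4. All 10 were among the 34882 genes of the deposited table, and all 10 were among the 12497 genes that were tested. No member was removed by the filter on low values.

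The livers came from 33 macaque offspring aged 3 years, 1 library per animal, in 4 groups named by maternal diet and then by the diet fed after weaning, where WSD is a western-style diet and CD a control diet. There were 7 WSD/WSD animals (western-style diet of the mother in pregnancy and lactation, and of the offspring after weaning), 10 WSD/CD animals (western-style diet of the mother only), 6 CD/WSD animals (western-style diet of the offspring only) and 10 CD/CD animals (neither). The organism field names rhesus macaque and the design text Japanese macaque. Each animal is a separate sample, and relatedness and sex are not given in the labels, so the tests take the animals as independent.

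As background, growth hormone binds GHR on hepatocytes, the kinase JAK2 then phosphorylates STAT5A and STAT5B, and these enter the nucleus and raise transcription of IGF1, IGFALS and SOCS2. Most circulating IGF1 travels in a ternary complex with IGFBP3 and the acid-labile subunit encoded by IGFALS, which holds it in the blood. IGFBP1 is switched off by insulin and switched on in fasting, and IGFBP2 also tends to be higher when insulin action is low, so the binding proteins report on feeding as well as on growth hormone.

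By level per transcript length, IGF1 led the axis with a mean of 693 FPKM over the 33 livers (FPKM counts the fragments of a gene, corrected for its transcript length and for the mapped total of the library), which was the 63rd highest mean among the genes tested. IGFBP3 followed at 664 FPKM and IGFBP4 at 403 FPKM. IGFBP1 averaged 140 FPKM, IGFALS 98.6, SOCS2 60.1, IGFBP2 38.9 and GHR 24.8 FPKM. STAT5B averaged 20.2 FPKM and STAT5A 3.24 FPKM, so the pair of STAT5 genes lay at the low end of the axis. Animals differed most in IGFBP2, whose highest library stood 57.1 times above its lowest, then in GHR at 19.6 times and IGFBP1 at 17.9 times. They differed least in STAT5B, at 2.33 times.

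**Figure D1:**
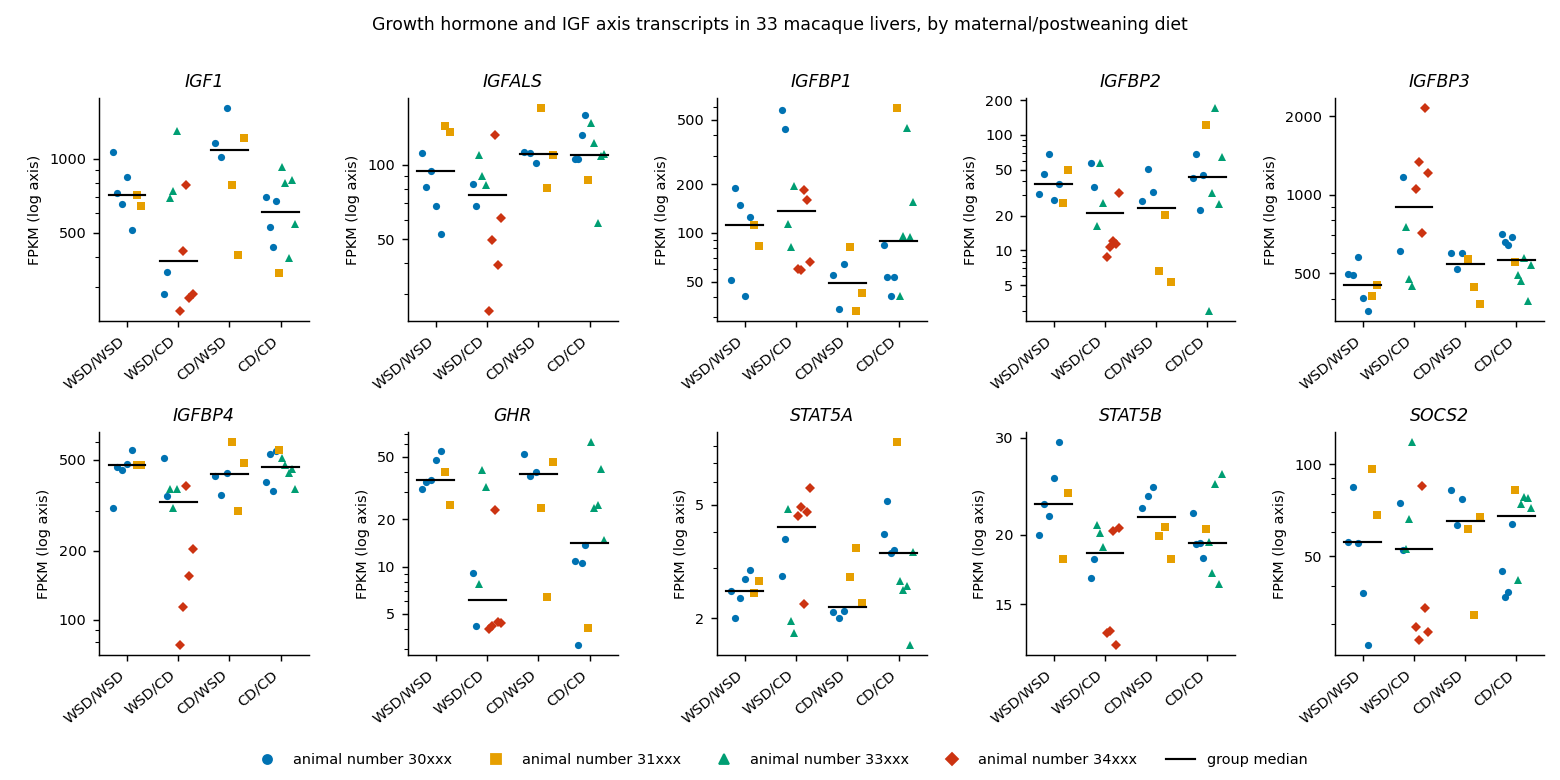
Level of each of the 10 transcripts (FPKM, log axis) in each of the 33 livers, by maternal/postweaning diet; points are animals, their shape and colour the first 2 digits of the animal number, and the black line the group median. In the WSD/CD group 4 of the 5 animals numbered 34xxx sat low for IGFBP4 (77.6 to 204 FPKM), GHR and SOCS2 and high for IGFBP3 (1047 to 2145 FPKM).

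The livers carried hepatocyte transcripts at high level, with SERPINA1 at a mean of 14507 FPKM and APOA1 at 5893 FPKM, while of the fat cell markers PLIN1 averaged 12.8 FPKM, ADIPOQ 0.302 FPKM and LEP was listed at 0 in every library. The muscle markers MYH2, ACTA1 and CKM averaged 0.566, 0.279 and 0.138 FPKM. Their sums were highest in CD/CD replicate 8 for fat (59.8 FPKM, next highest 20.3) and in WSD/WSD replicate 4 for muscle (18.4 FPKM, next highest 1.34). ALB was missing in 31 libraries. The WSD/CD group stood apart from the others: mitochondrially encoded transcripts took 7.12% ± 5.60 of its summed FPKM, against 2.35% ± 0.74 in CD/CD (SD, n = 10 each), and 6 of its 10 libraries, but none of any other group, exceeded 5%. Summed over the marker lists, hepatocyte transcripts came to 21345 ± 9257 FPKM in WSD/CD and 31324 ± 3090 FPKM in CD/CD, and stellate cell and fibroblast transcripts to 190 ± 59.3 FPKM in WSD/CD and 119 ± 27.8 FPKM in CD/CD. All 5 animals with numbers above 34000 belonged to WSD/CD, and the labels do not say what the leading digits of a number stand for. Animals with numbers starting in 30 were spread over all 4 groups (5 WSD/WSD, 2 WSD/CD, 3 CD/WSD and 4 CD/CD), so the groups can be compared inside that range. There, animals weaned to the western-style diet were numbered 30155 to 30399 and those weaned to the control diet 30586 to 30734. Postweaning diet and number order thus cannot be told apart in the comparisons inside the 30 range below. The range starting in 31 held 2 WSD/WSD, 3 CD/WSD and 1 CD/CD animals, and the range starting in 33 held 3 WSD/CD and 5 CD/CD animals.

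GHR (ENSMMUG00000001336), the receptor, set the widest contrast between diets. It ranged from 24.5 to 54.7 FPKM in WSD/WSD livers with a median of 35.8, from 4.02 to 41.1 FPKM in WSD/CD livers with a median of 6.10, from 6.40 to 52.4 FPKM in CD/WSD livers with a median of 38.8, and from 3.17 to 62.0 FPKM in CD/CD livers with a median of 14.2. The 2 groups fed the western-style diet after weaning were high with 1 low animal between them, whereas the 2 groups weaned to the control diet were spread over the whole range, and every pair of groups overlapped. Below 10 FPKM, a level picked after the values were seen, lay 1 of the 13 animals weaned to the western-style diet and 9 of the 20 weaned to the control diet. GHR was 1.91 higher on the log2 scale in WSD/WSD than in WSD/CD (95% interval 0.90 to 2.93, limma adjusted p = 0.00368), and all 7 WSD/WSD animals lay above the WSD/CD mean. In bulk liver, fewer cells of a type and less RNA per cell cannot be told apart, and this holds for every transcript below.

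Inside the 30 range the GHR levels separated by the diet fed after weaning, which there runs with number order. The 5 WSD/WSD animals had 31.1, 34.5, 35.8, 47.8 and 54.7 FPKM, and the 2 WSD/CD animals had 9.11 and 4.21 FPKM. The 3 CD/WSD animals had 52.4, 37.6 and 40.03 FPKM, and the 4 CD/CD animals had 10.9, 3.17, 10.5 and 13.8 FPKM. All 8 animals weaned to the western-style diet were thus above all 6 weaned to the control diet, under either maternal diet. Fitted on these 14 animals alone, GHR was 2.20 higher on the log2 scale in CD/WSD than in CD/CD (limma adjusted p = 0.000723), 2.09 higher in WSD/WSD than in CD/CD (adjusted p = 0.000314) and 2.49 higher in WSD/WSD than in WSD/CD (adjusted p = 0.000573). Over all 33 animals the first of these was 0.90 (adjusted p = 0.408) and the second 1.25 (adjusted p = 0.0763).

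In the 31 range the 2 WSD/WSD animals had 40.2 and 24.5 FPKM and the 3 CD/WSD animals 23.5, 6.40 and 46.5 FPKM, all above the 1 CD/CD animal at 4.07 FPKM. The 33 range held control-weaned animals only, so postweaning diets could not be compared there, and GHR ran from 7.74 to 62.0 FPKM with a median of 28.4, into the levels of the animals weaned to the western-style diet. Within it the 3 WSD/CD animals had 7.74 to 41.1 FPKM and CD/CD animals had 62.0, 23.6, 24.8, 41.8 and 14.7 FPKM, so the groups overlapped. Other measures of the libraries also differed between the postweaning diets in the 30 range. The mitochondrial share was 1.34% to 1.98% in animals weaned to the western-style diet and 2.44% to 6.94% in those weaned to the control diet. Summed endothelial markers were 82.8 to 102 FPKM against 34.1 to 74.3 FPKM. The mean Y-linked level was above 1 on the log2(FPKM + 1) scale in 5 of the 8 and in 2 of the 6. In the 31 range the mitochondrial share and the endothelial sum differed in the opposite direction. The share was 1.79% to 4.41% in animals weaned to the western-style diet and 1.33% in the 1 CD/CD animal. The endothelial sum was 22.03 to 27.8 FPKM against 67.9 FPKM. The direction of these differences with diet was thus not the same in the 30 and 31 ranges. The part of these measures in the GHR difference was not tested.

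**Figure D2:**
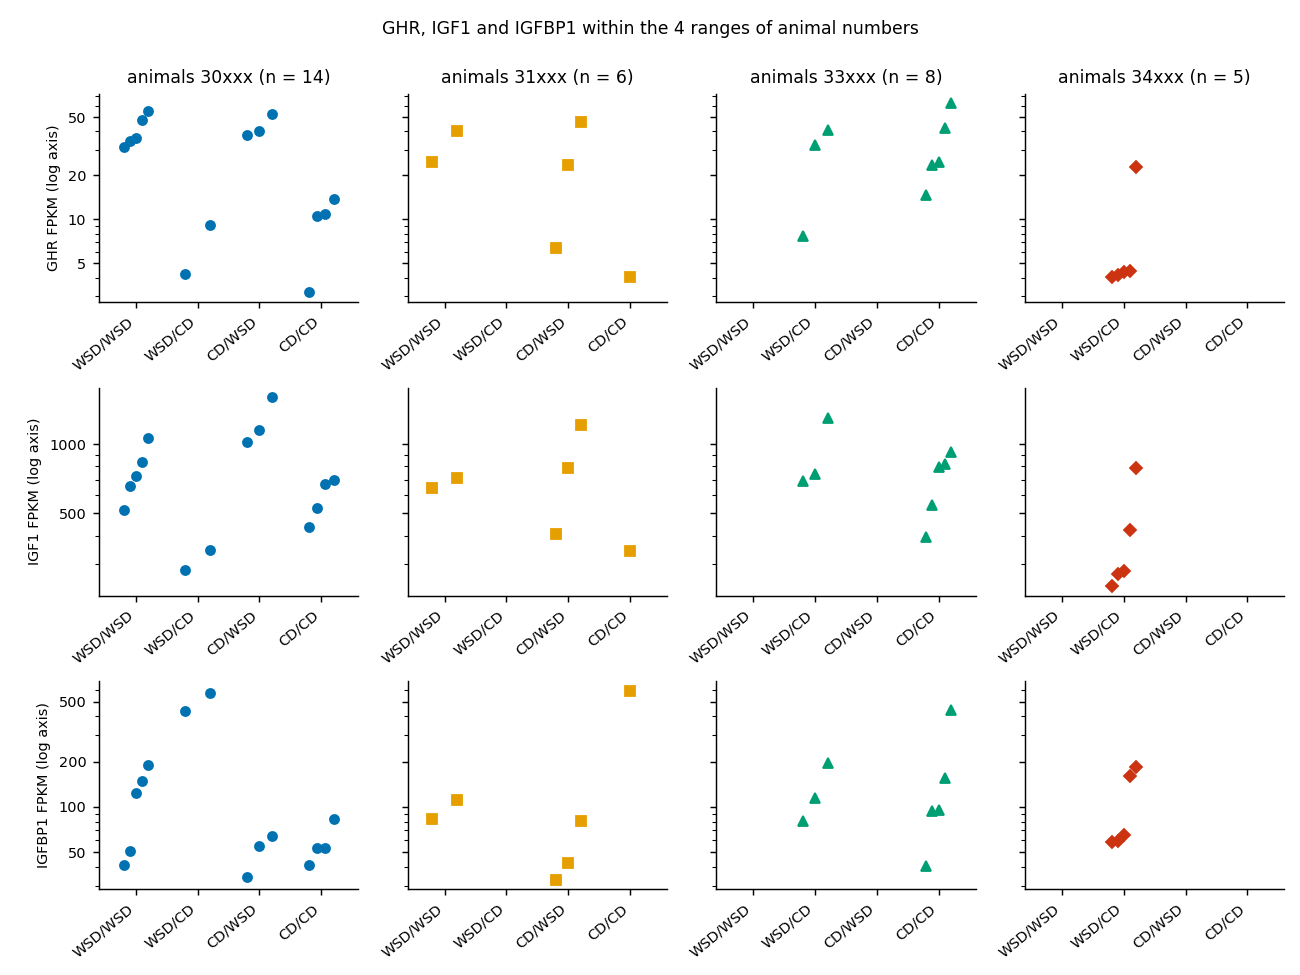
Level of GHR, IGF1 and IGFBP1 (FPKM, log axis) by diet group, in separate panels for animals with numbers starting in 30, 31, 33 and 34; each point is 1 animal. In the 30 range GHR was 31.1 to 54.7 FPKM in animals weaned to the western-style diet and 3.17 to 13.8 FPKM in animals weaned to the control diet, while in the 33 range control-weaned animals alone spanned 7.74 to 62.0 FPKM.

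STAT5B (ENSMMUG00000003437) and STAT5A (ENSMMUG00000010705) carry the receptor's signal to the genome. STAT5B ranged from 18.1 to 29.4 FPKM in WSD/WSD (median 22.7), from 12.6 to 20.8 FPKM in WSD/CD (median 18.5), from 18.1 to 24.4 FPKM in CD/WSD (median 21.5) and from 16.3 to 25.8 FPKM in CD/CD (median 19.4). It was the steadiest member, and the lowest values were those of 3 WSD/CD animals in the 34 range, at 13.3, 13.4 and 12.6 FPKM. STAT5B was 0.38 higher on the log2 scale in WSD/WSD than in WSD/CD (SE 0.12, limma adjusted p = 0.0110, 7 of 7 animals above the WSD/CD mean). That comparison also moved the median of all 12497 genes, by 0.26 on the log2 scale, and with each library scaled by the median of its ratios to a common reference, which brought that median to -0.02, the STAT5B difference was 0.03 (adjusted p = 0.775).

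STAT5A ordered the groups, by median, in the reverse of the GHR order. It ranged from 2.00 to 2.95 FPKM in WSD/WSD (median 2.50), from 1.78 to 5.70 FPKM in WSD/CD (median 4.18), from 2.00 to 3.54 FPKM in CD/WSD (median 2.20) and from 1.61 to 8.27 FPKM in CD/CD (median 3.40). The control-weaned groups were the more variable, and their highest animal, CD/CD replicate 5, had one of the lowest GHR levels at 4.07 FPKM. No STAT5A difference passed the test on the FPKM as deposited over the 33 animals. Relative to WSD/CD, STAT5A in WSD/WSD was -0.36 as deposited (limma adjusted p = 0.122) and it passed at -0.65 with median-of-ratios scaling (adjusted p = 0.0263), -0.68 with quantile normalization (0.0179), -0.50 with library weights (0.0108) and -0.53 with the number range as a factor (0.0417), but was -0.14 without animals above 34000 (0.686). Relative to CD/CD, all 7 WSD/WSD animals lay below its mean, with a difference of -0.33 (95% interval -0.72 to 0.05, limma adjusted p = 0.215). Among animals of the 30 range STAT5A fell by 0.68 on the log2 scale in CD/WSD relative to CD/CD (adjusted p = 0.00219) and by 0.50 in WSD/WSD relative to CD/CD (adjusted p = 0.0057). In the RefSeq table for T2T-MMU8v2.0 the STAT5A and STAT5B genes neighbour and overlap each other. They are close paralogs, and a sharing of reads between them was not tested.

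SOCS2 (ENSMMUG00000054674), which is induced by STAT5 and damps growth hormone signalling, passed no test between diet groups. It ranged from 25.5 to 96.8 FPKM in WSD/WSD (median 55.6), from 26.5 to 118 FPKM in WSD/CD (median 52.6), from 31.98 to 82.1 FPKM in CD/WSD (median 65.4) and from 36.7 to 82.6 FPKM in CD/CD (median 67.8). All 4 groups covered much the same range. The largest of its differences from CD/CD was -0.21 in WSD/CD (95% interval -0.74 to 0.32, limma adjusted p = 0.610).

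IGF1 (ENSMMUG00000002235), the hormone itself, ranged from 515 to 1069 FPKM in WSD/WSD (median 712), from 241 to 1297 FPKM in WSD/CD (median 384), from 406 to 1605 FPKM in CD/WSD (median 1087) and from 342 to 921 FPKM in CD/CD (median 610). CD/WSD was highest and WSD/CD lowest, and no group mean stood apart from the next by more than the larger of their SDs. Below 400 FPKM, a level picked after the values were seen, lay none of the 13 animals weaned to the western-style diet and 7 of the 20 weaned to the control diet. Over all animals IGF1 passed no test: the difference was 0.69 on the log2 scale for CD/WSD minus CD/CD (95% interval 0.06 to 1.33, limma adjusted p = 0.313) and 0.66 for WSD/WSD minus WSD/CD (0.05 to 1.26, adjusted p = 0.0726). Among animals of the 30 range the same differences were 1.10 (adjusted p = 0.0042) and 1.24 (adjusted p = 0.00353). There, CD/WSD animals had 1155, 1019 and 1605 FPKM against 702, 529, 437 and 674 FPKM in CD/CD, and WSD/WSD animals had 515 to 1069 FPKM against 282 and 346 FPKM in WSD/CD, with no overlap in either pair. WSD/WSD and CD/CD did overlap there, and limma gave 0.36 for WSD/WSD minus CD/CD (adjusted p = 0.206), which did not pass. Control-weaned animals of the 33 range had 396 to 1297 FPKM (median 766), into the levels of the animals weaned to the western-style diet.

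IGFALS (ENSMMUG00000018598), the acid-labile subunit, ranged from 52.6 to 143 FPKM in WSD/WSD (median 94.1), from 25.6 to 132 FPKM in WSD/CD (median 75.6), from 80.5 to 170 FPKM in CD/WSD (median 111) and from 58.0 to 160 FPKM in CD/CD (median 110). WSD/CD held the lowest animals, though the groups overlapped. IGFALS fell by 0.70 on the log2 scale in WSD/CD relative to CD/CD (SE 0.23, limma adjusted p = 0.0492), and 9 of 10 WSD/CD animals were below the CD/CD mean. With median-of-ratios scaling the difference was -0.49 (adjusted p = 0.149).

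IGFBP3 (ENSMMUG00000013764), the main carrier of IGF1 in blood, was highest in WSD/CD, where its partner subunit was lowest. It ranged from 359 to 579 FPKM in WSD/WSD (median 450), from 445 to 2145 FPKM in WSD/CD (median 899), from 382 to 597 FPKM in CD/WSD (median 544) and from 391 to 707 FPKM in CD/CD (median 561). The 5 highest animals, from 1047 to 2145 FPKM, were all WSD/CD. IGFBP3 rose by 0.65 on the log2 scale in WSD/CD relative to CD/CD (SE 0.20, limma adjusted p = 0.0399, 8 of 10 animals above the CD/CD mean), and it was 0.97 lower in WSD/WSD than in WSD/CD (SE 0.22, adjusted p = 0.00178, 7 of 7 animals below). Inside the 30 range IGFBP3 was 359 to 597 FPKM in the 8 animals weaned to the western-style diet and 607 to 1173 FPKM in the 6 weaned to the control diet, without overlap. There limma gave -0.24 for CD/WSD minus CD/CD (adjusted p = 0.390), which did not pass. It gave -0.56 for WSD/WSD minus CD/CD (adjusted p = 0.0268) and -0.88 for WSD/WSD minus WSD/CD (adjusted p = 0.00893). The last rests on 2 WSD/CD animals, at 607 and 1173 FPKM, the second with a mitochondrial share of 6.94%. Control-weaned animals of the 33 range had 391 to 751 FPKM (median 484), into the levels of the animals weaned to the western-style diet.

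IGFBP4 (ENSMMUG00000009384), a binding protein that mostly restrains IGF1 locally, ranged from 309 to 551 FPKM in WSD/WSD (median 475), from 77.6 to 508 FPKM in WSD/CD (median 327), from 300.0 to 598 FPKM in CD/WSD (median 432) and from 366 to 551 FPKM in CD/CD (median 468). Outside WSD/CD no animal was below 300 FPKM, while 4 WSD/CD animals were at 77.6, 114, 155 and 204 FPKM. IGFBP4 fell by 0.90 on the log2 scale in WSD/CD relative to CD/CD (SE 0.24, limma adjusted p = 0.0238, 9 of 10 animals below the CD/CD mean), and it was 0.87 higher in WSD/WSD than in WSD/CD (SE 0.26, adjusted p = 0.00862, 7 of 7 above). With median-of-ratios scaling the second difference was 0.50 (adjusted p = 0.0540).

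In WSD/CD the lowest IGFALS and IGFBP4 values and the 3 highest IGFBP3 values were those of animals numbered above 34000. Replicates 6, 7, 9 and 10 of that group, with mitochondrial shares of 15.8%, 11.5%, 16.1% and 7.58%, had IGFBP3 at 1047, 1332, 2145 and 1213 FPKM, IGFBP4 at 77.6, 114, 155 and 204 FPKM and IGFALS at 25.6, 49.6, 39.3 and 61.2 FPKM. Replicate 2, of the 30 range, with a share of 6.94%, had IGFBP3 at 1173, IGFBP4 at 347, IGFALS at 68.0 and GHR at 4.21 FPKM, and replicate 3, of the 33 range, with a share of 5.06%, had 751, 374, 109 and 7.74 FPKM of the same transcripts. Replicate 8, in the same number range as replicates 6, 7, 9 and 10 but with a share of 1.98%, had IGFBP3 at 714, IGFBP4 at 386, IGFALS at 132 and GHR at 22.9 FPKM, the last 3 within the CD/CD range and IGFBP3 just above it. Without the 5 animals above 34000, none of the 10 transcripts passed in WSD/CD minus CD/CD, beside 0% of all genes. There limma gave IGFBP3 0.20 (adjusted p = 0.874), IGFBP4 -0.29 (adjusted p = 0.662) and IGFALS -0.36 (adjusted p = 0.730). In WSD/WSD minus WSD/CD, too, none passed without them, beside 3.46% of all genes. Limma then gave GHR 1.40 (adjusted p = 0.114), IGFBP3 -0.52 (adjusted p = 0.0839), IGFBP4 0.26 (adjusted p = 0.264) and STAT5B 0.26 (adjusted p = 0.140). With the mitochondrial share as a covariate no transcript passed in either comparison, beside 0% of all genes in the first and 0.096% in the second. The mean Y-linked level was 2.18 to 2.49 in the 5 animals above 34000. In WSD/CD replicates 1, 2, 3 and 5 it was 0.0145 to 0.101, and in replicate 4 it was 2.37. With that level as a covariate, limma gave IGFBP3 0.61 (adjusted p = 0.0643), IGFBP4 -0.82 (0.0410) and IGFALS -0.72 (0.0622) in WSD/CD minus CD/CD. Relative to CD/CD, 4 of 11 hepatocyte markers fell in WSD/CD and 6 of 11 stellate cell and fibroblast markers rose, and the maternal diet, the animal number range and these library measures cannot be told apart in WSD/CD.

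**Figure D3:**
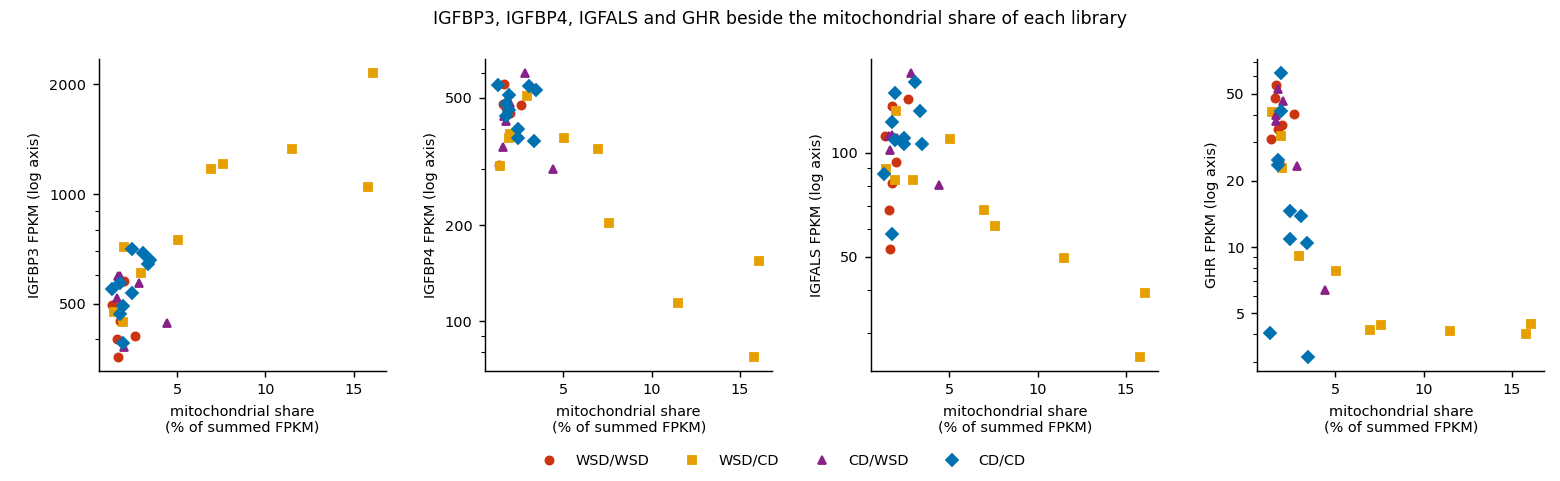
Level of IGFBP3, IGFBP4, IGFALS and GHR (FPKM, log axis) against the share of summed FPKM taken by mitochondrially encoded transcripts (percent) in each of the 33 libraries, coloured by diet group. The 6 libraries above 5% are all WSD/CD; the 2 above 15% hold IGFBP3 at 1047 and 2145 FPKM and IGFBP4 at 77.6 and 155 FPKM.

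IGFBP1 (ENSMMUG00000059330), the binding protein suppressed by insulin, was the most skewed of the set. It ranged from 40.9 to 190 FPKM in WSD/WSD (median 111), from 58.9 to 570 FPKM in WSD/CD (median 137), from 32.9 to 81.1 FPKM in CD/WSD (median 48.9) and from 40.4 to 589 FPKM in CD/CD (median 89.1). Above 400 FPKM, a level picked after the values were seen, lay 4 animals, all weaned to the control diet: CD/CD replicates 5 and 8 and WSD/CD replicates 1 and 2. These 4 also shared a low mean Y-linked level, 0.0145 to 0.0925 on the log2(FPKM + 1) scale. Other animals with a low level lay below the cut, such as CD/CD replicate 1 (level 0, IGFBP1 83.6 FPKM). The part of diet or of Y-linked level in these high values was not tested. The next highest animal had 194 FPKM. CD/WSD was lowest, with all 6 animals below the CD/CD mean, but the difference of -1.07 (95% interval -2.14 to -0.00415) did not pass (limma adjusted p = 0.347). By group mean, 107 ± 53.4 FPKM in WSD/WSD exceeded 51.6 ± 18.8 FPKM in CD/WSD by just over the larger SD (n = 7 and 6), and the test of that difference gave 0.94 (-0.21 to 2.09, adjusted p = 0.962).

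Inside the 30 range IGFBP1 stood at 570 and 436 FPKM in the 2 WSD/CD animals, against 83.6, 53.5, 40.9 and 53.2 FPKM in CD/CD and 40.9 to 190 FPKM in WSD/WSD. IGFBP1 was 3.13 higher on the log2 scale in WSD/CD than in CD/CD there (limma adjusted p = 0.00818) and 2.39 lower in WSD/WSD than in WSD/CD (adjusted p = 0.00314). Both rest on 2 WSD/CD animals. The 3 WSD/CD animals of the 33 range had 114, 81.3 and 194 FPKM against 40.4 to 441 FPKM in CD/CD, which overlapped.

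IGFBP2 (ENSMMUG00000054183), which binds IGF1 and IGF2 outside the ternary complex, ranged from 25.5 to 67.9 FPKM in WSD/WSD (median 37.7), from 8.79 to 56.8 FPKM in WSD/CD (median 20.97), from 5.34 to 50.2 FPKM in CD/WSD (median 23.3) and from 2.99 to 171 FPKM in CD/CD (median 43.5). WSD/WSD was the tightest group and CD/CD held both the highest and the lowest animal of the study. The 2 CD/CD animals with IGFBP1 above 400 FPKM also had the highest IGFBP2, at 121 and 171 FPKM. No IGFBP2 difference passed over the 33 animals, with -1.12 for CD/WSD minus CD/CD (95% interval -2.25 to 0.00203, limma adjusted p = 0.350) and 1.06 for WSD/WSD minus CD/WSD (-0.15 to 2.27, adjusted p = 0.962).

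Counted by comparison, the maternal western-style diet in control-weaned offspring (WSD/CD minus CD/CD) gave 3 of the 10 transcripts past the threshold of an adjusted p of 0.05, with IGFBP3 higher and IGFALS and IGFBP4 lower. Of all genes tested 9.55% passed there, 1.52% higher and 8.03% lower. The postweaning diet alone (CD/WSD minus CD/CD) gave 0 of 10, beside 0.0240% of all genes. Both exposures against neither (WSD/WSD minus CD/CD) gave 0 of 10, beside 16.7% of all genes. The maternal diet in offspring fed the western-style diet (WSD/WSD minus CD/WSD) gave 0 of 10 beside 0% of all genes, with 307 genes at an unadjusted limma p under 0.05. The postweaning diet on top of the maternal one (WSD/WSD minus WSD/CD) gave 4 of 10, with GHR, IGFBP4 and STAT5B higher and IGFBP3 lower, beside 44.0% of all genes, so the share among the axis is near that of the whole table.

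The median log2 difference of the 10 transcripts was -0.28 in WSD/CD minus CD/CD, where that of all genes was -0.15, and 0.42 in WSD/WSD minus WSD/CD, where that of all genes was 0.26. In the other 3 comparisons the median of the 10 lay between -0.06 and 0.06, and that of all genes between 0.03 and 0.10. Comparisons that use the same CD/CD or WSD/CD animals share those animals' error. Whether the postweaning difference depended on maternal diet was tested as an interaction, which no transcript passed, beside 0% of all genes (2453 genes at an unadjusted limma p under 0.05). The smallest p-values were those of IGFBP4 at 0.996 (95% interval 0.23 to 1.76, adjusted p = 0.209), IGFBP3 at -0.84 (-1.49 to -0.18, adjusted p = 0.209) and IGFBP2 at 1.94 (0.38 to 3.49, adjusted p = 0.211).

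**Figure D4:**
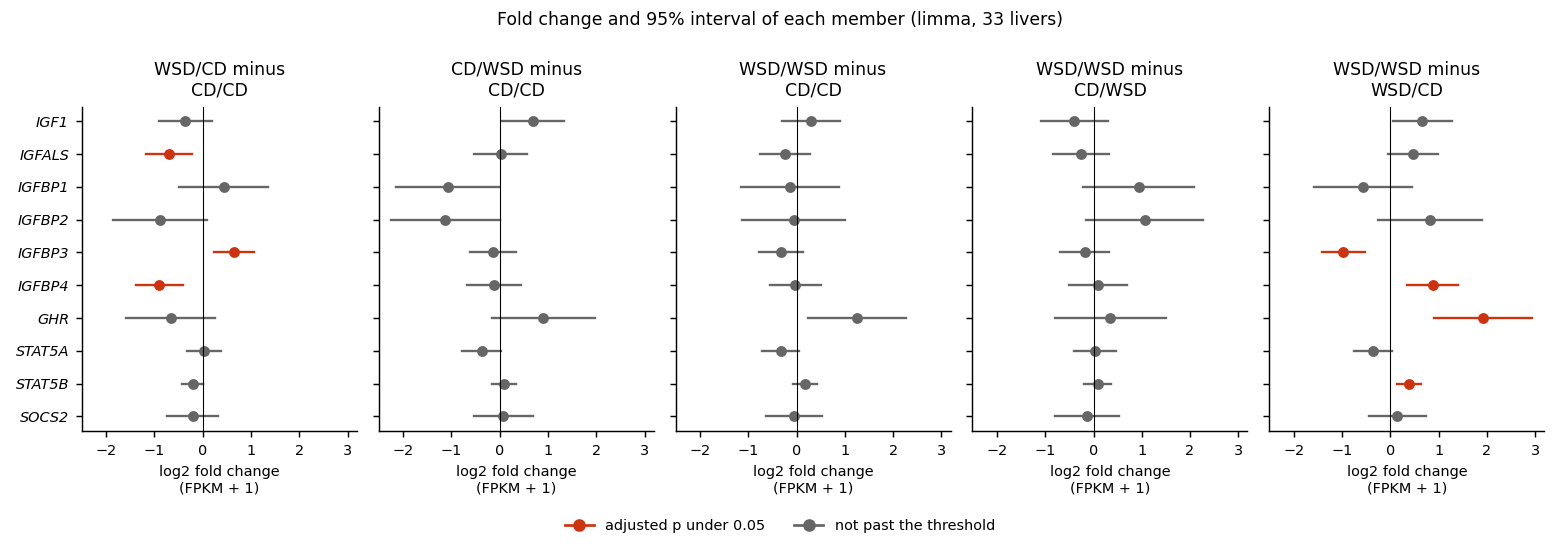
Log2 difference (limma, on FPKM + 1) and 95% interval of each transcript in the 5 comparisons between diet groups, over 33 livers; red marks an adjusted p under 0.05 over all genes tested. The 3 transcripts past the threshold in WSD/CD minus CD/CD and the 4 in WSD/WSD minus WSD/CD are red, and the intervals of the other comparisons are grey throughout.

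Inside the 30 range more of the axis passed. CD/WSD minus CD/CD gave 3 of the 10 (GHR and IGF1 higher, STAT5A lower) where 39.1% of all genes passed, and WSD/WSD minus CD/CD gave 4 (GHR higher, IGFALS, IGFBP3 and STAT5A lower) where 44.7% passed. WSD/WSD minus WSD/CD gave 5 (GHR, IGF1 and STAT5B higher, IGFBP1 and IGFBP3 lower) where 41.5% passed, and WSD/CD minus CD/CD gave 1 (IGFBP1 higher) where 2.92% passed. In each comparison of postweaning diet the share among the axis was again near that of the whole table. Fitted over all 33 animals with the number range as a factor, CD/WSD minus CD/CD gave 3 of the 10 where 34.2% of all genes passed, WSD/WSD minus CD/CD 4 where 44.2% passed, WSD/WSD minus WSD/CD 3 where 40.9% passed and WSD/CD minus CD/CD 0 where 0.00800% passed. With animals numbered below 32000 alone, CD/WSD minus CD/CD gave 4 where 17.5% passed, WSD/WSD minus CD/CD 3 where 38.8% passed, WSD/WSD minus WSD/CD 4 where 28.6% passed and WSD/CD minus CD/CD 0 where 1.38% passed. With limma's library weights, CD/WSD minus CD/CD gave 3 where 42.4% passed, WSD/WSD minus CD/CD 2 where 39.3% passed, WSD/WSD minus WSD/CD 6 where 46.8% passed and WSD/CD minus CD/CD 3 where 14.5% passed.

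Animals that were high in IGF1 for their diet group were also high in GHR. With each group's mean removed, the correlation over the 33 livers was r = 0.73 (Spearman rho = 0.70, permutation p = 3e-05, adjusted over 10 relations p = 0.0003), and r = 0.65 without the 2 animals farthest from the median of IGF1. By group, r was -0.31 for WSD/WSD, 0.83 for WSD/CD, 0.93 for CD/WSD and 0.65 for CD/CD. Within the 30 range, with group means removed, r was -0.11 (n = 14, permutation p = 0.740), and within the 33 range it was 0.55 (n = 8, exact permutation p = 0.211), so the relation did not pass within either of these ranges. The 31 and 34 ranges, with 6 and 5 animals, were not tested.

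Of the other relations with IGF1, those of IGFALS (r = 0.56, rho = 0.50, adjusted permutation p = 0.0073), SOCS2 (r = 0.52, rho = 0.42, adjusted p = 0.011) and STAT5A (r = -0.64, rho = -0.61, adjusted p = 0.00155) also passed over the 33 livers. Without the 2 animals farthest from the median of IGF1 they were r = 0.57, 0.34 and -0.56. By group, r with IGF1 for SOCS2, which is induced through STAT5, was 0.28 for WSD/WSD, 0.74 for WSD/CD, 0.94 for CD/WSD and -0.17 for CD/CD. For IGFALS, induced in the same way, it was 0.33, 0.70, 0.25 and 0.62 in that order of groups, and for STAT5A it was -0.27, -0.70, -0.91 and -0.63. IGFBP1 and IGFBP2, the binding proteins tied to insulin, varied together (r = 0.52, rho = 0.45, adjusted permutation p = 0.011), and r was 0.37 without the 2 animals farthest from the median of IGFBP1. IGFBP3 (r = -0.47, adjusted p = 0.0604), IGFBP4 (r = 0.37), STAT5B (r = 0.17), IGFBP1 (r = -0.20) and IGFBP2 (r = -0.19) did not pass with IGF1. None of the 10 relations passed within the 30 range or within the 33 range. The smallest p-value within the 33 range was that of STAT5B with IGF1 (r = -0.75, n = 8, exact permutation p = 0.0403, adjusted p = 0.222). IGFBP1 with IGFBP2 gave r = 0.82 there (exact permutation p = 0.0597, adjusted p = 0.222).

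**Figure D5:**
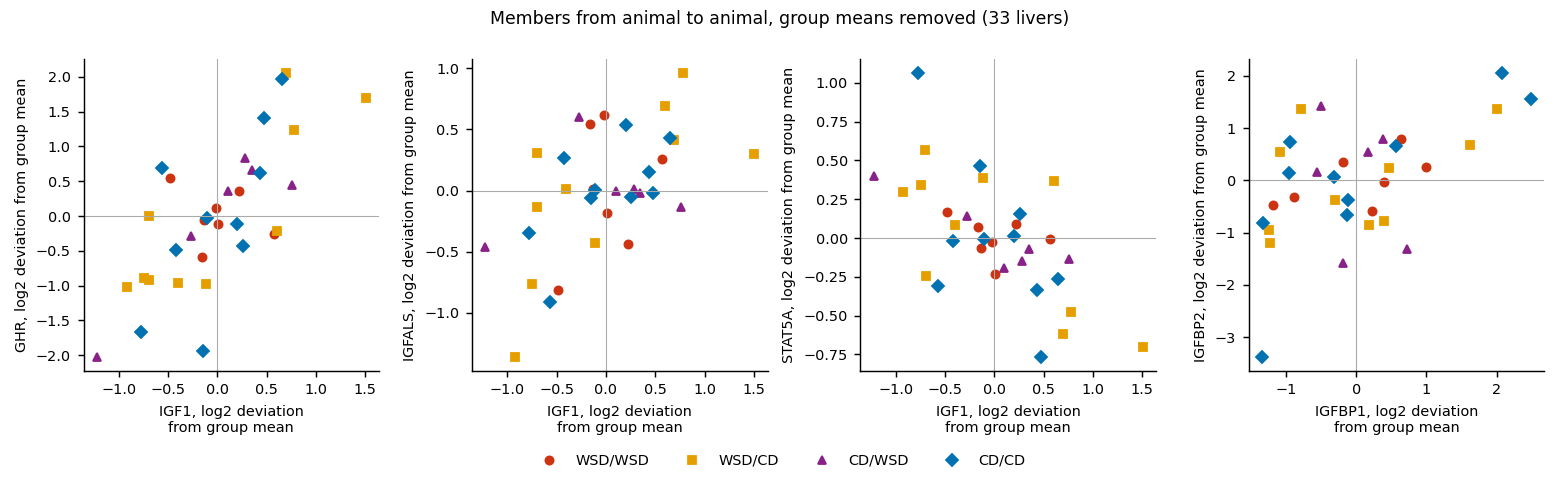
Deviation of each animal from its diet group's mean (log2 of FPKM + 1) for GHR, IGFALS and STAT5A against IGF1, and for IGFBP2 against IGFBP1, in 33 livers; each point is 1 animal. GHR and IGFALS climb with IGF1 (r = 0.73 and 0.56), STAT5A declines with it (r = -0.64), and IGFBP2 climbs with IGFBP1 (r = 0.52).

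Among all genes tested that carry their own symbol, LACTB2 (r = 0.90) and ECHDC1 (r = 0.90) were the ones whose levels followed IGF1 most closely over the 33 libraries. IGFALS was followed most closely by HACD3 (r = 0.92), HGFAC (r = 0.91) and VTN (r = 0.91). For IGFBP1 they were AKAP7 (r = 0.81), QSOX1 (r = 0.79) and FST (r = 0.79), and for IGFBP2 they were HPRT1 (r = 0.70), ALPL (r = 0.69) and RRAS (r = 0.67). Libraries share diet group, number range and mitochondrial share across all of these genes, so the values are a description of likeness only.

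The wider pathway was read from 4 lists. Of the genes of growth hormone receptor signalling and its brakes, 13 of 17 were tested, and none passed in WSD/CD minus CD/CD or CD/WSD minus CD/CD. Relative to CD/CD, 3 were higher in WSD/WSD: JAK2, the kinase bound to GHR, by 0.38 on the log2 scale, the phosphatase PTPN11 by 0.42 and the ubiquitin ligase CBL by 0.55. Relative to WSD/CD, 6 were higher in WSD/WSD and none lower, among them PTPN11 (0.60), the phosphatase PTPN1 (0.61), the transcription factor STAT3 (1.201) and the membrane protein SIRPA (0.51).

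Of the IGF ligands, receptors, other binding proteins and their proteases, 8 of 12 were tested. Against CD/CD, the receptor IGF2R, which clears IGF2, was 0.84 higher in WSD/WSD and IGFBP5 0.71 higher. Against WSD/CD, IGF2R was 1.19 higher and the insulin receptor INSR 1.45 higher, while IGFBP6 fell by 0.38 and IGFBP7 fell by 0.65. Of 7 tested growth hormone responsive liver genes, the cytokine receptor LIFR was higher in WSD/WSD than in CD/CD by 1.08, and EGFR (1.49), CUX2 (0.78) and the leptin receptor LEPR (1.42) were higher in WSD/WSD than in WSD/CD.

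Genes that insulin and the transcription factor FOXO1 regulate gave 4 of 10 higher in WSD/WSD than in CD/CD, among them FOXO1 itself by 1.004, FOXO3 by 0.94 and SESN1 by 0.47. Against WSD/CD, 6 of 10 were higher in WSD/WSD, among them FOXO1 at 1.35, FOXO3 at 1.21 and SESN1 at 0.60. No gene of the 4 lists passed in CD/WSD minus CD/CD, in WSD/WSD minus CD/WSD or in the interaction. All of these fold changes passed limma's test at an adjusted p under 0.05 over the 12497 genes, of which 13.2% were higher and 3.42% lower in WSD/WSD minus CD/CD, and 37.9% higher and 6.14% lower in WSD/WSD minus WSD/CD. Without the animals above 34000, WSD/WSD minus WSD/CD gave 0 genes of the signalling list, 0 of the IGF list, 0 of the growth hormone responsive list and 1 of the insulin and FOXO1 list, beside 3.46% of all genes. Also without them, WSD/WSD minus CD/CD gave 4, 2, 1 and 6, beside 21.9% of all genes. Inside the 30 range WSD/WSD minus CD/CD gave 8 of 13, 6 of 8, 4 of 7 and 7 of 10 in the same order of lists, in either direction, beside the 44.7% of all genes.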

How the data were processed

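Liver RNA of 33 animals was sequenced; per the labels' protocols, libraries were strand-specific mRNA preparations read as paired ends. GSNAP, SAMtools and Cufflinks are named in the submitters' processing notes, with no settings, and the build was not given in the sources used here. FPKM values were deposited by the authors in 1 table, per the file header, and each column was matched to its sample by the animal number in the title, replicates were numbered within groups in accession order, and the value 999999999 was read as missing (15 genes). FPKM are not counts: the total depth of each library is unknown, and low genes gave only a rough relative depth of 0.581 to 1.68. Between 15519 and 17298 genes were above 0 in each library.

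Genes with a mean of at least 0.5 FPKM and no missing value were tested with limma 3.58.1 (R 4.3.3) on log2(FPKM + 1) with a mean-variance trend, 4 group means over all 33 libraries, and Benjamini-Hochberg adjustment over 12497 genes; fold changes on this scale understate those of low genes. The code was tested on simulated data. Relations between transcripts used deviations from group means and 100000 permutations within groups (scipy 1.17.1). The members, gene lists and tests were chosen with earlier results of these data known. Named genes were the 10 members, with fold changes for those past the threshold or, where none passed, the 3 with the smallest p (others were added where a comparison needed them), at most 4 genes per list and comparison, and the 3 genes most correlated with IGF1, IGFALS, IGFBP1 and IGFBP2. Alternatives covered pseudocount, filter, scaling, the groups in the fit, library weights, number range, mitochondrial share and Y-linked level; the fit inside the 33 range was added after seeing the data. Promoters and sequences were not analysed here. Some genes that this naming rule picks are not reported here.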

Additional observations from a re-analysis of the deposited data

Results flagged for a closer look

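Of 40 sets of values (10 transcripts in 4 groups), 3 held a sample far from the rest of its group by a gap test that chance alone trips in about 1 of 20 sets. IGFBP2 was lowest in CD/CD replicate 6, at 2.991 FPKM, with the nearest CD/CD animal at 22.5 FPKM. This animal also had the highest GHR of the study, 62.0 FPKM. IGFBP4 was lowest in WSD/WSD replicate 1, at 309.5 FPKM, with the nearest at 449.6 FPKM, and the same animal had the highest IGF1 of its group, 1069 FPKM. SOCS2 was lowest in CD/WSD replicate 5, at 31.98 FPKM, with the nearest at 61.35 FPKM. That animal was also the lowest of its group for GHR (6.40 FPKM), IGF1 (406 FPKM) and IGFALS (80.5 FPKM) and had the highest mitochondrial share outside WSD/CD, 4.41%; the part of that share was not tested.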

How the results depend on the processing

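A pseudocount of 0.1, median-of-ratios scaling and quantile normalization kept each comparison's count of the 10 transcripts within 1.5 times, but with the last 2 the transcripts counted changed. In WSD/CD minus CD/CD IGFALS no longer passed (limma adjusted p = 0.149 and 0.218 in that order). In WSD/WSD minus WSD/CD STAT5B no longer passed (0.775 and 0.948) and STAT5A, lower, did (0.0263 and 0.0179). IGFBP4 no longer passed there with median-of-ratios scaling (0.0540). In WSD/CD minus CD/CD the count of 3 became 1 with no filter on low values or with Y-linked level as a covariate (IGFBP4 lower each time). Of all genes 2.83% and 4.61% passed in these fits. The count also became 1 in the 30 range (IGFBP1 higher), beside 2.92% of all genes. It became 0 with only the groups compared, without animals above 34000 or with mitochondrial share as a covariate, beside 0% of all genes each time. It was also 0 with number range as a factor (0.008% of all genes), with animals below 32000 (1.38%) and in the 33 range (0.024%). In CD/WSD minus CD/CD the count of 0 became 3 with library weights, with number range as a factor and in the 30 range, and 4 with animals below 32000; GHR, IGF1 and STAT5A were among them each time. In WSD/WSD minus CD/CD the count of 0 became 1 with only the groups compared or with mitochondrial share as a covariate (GHR), 2 with library weights, 3 with animals below 32000 and 4 with number range as a factor or in the 30 range, GHR being in all. Of all genes, 27.3% passed there with only the groups compared and 24.9% with mitochondrial share as a covariate. In WSD/WSD minus WSD/CD the count of 4 became 0 without animals above 34000 (3.46% of all genes) and with mitochondrial share as a covariate (0.096% of all genes). The causes were not tested. The relation of STAT5B with IGF1 (r = 0.17) reversed to -0.36 with median-of-ratios scaling, -0.0836 without animals above 34000 and -0.16 with number range means removed, and that of IGFBP4 with IGF1 (r = 0.37) to -0.0725 without animals above 34000. Median-of-ratios scaling moved the all-gene median in WSD/WSD minus WSD/CD to -0.02 and the split of all calls there to 2262 higher and 2232 lower, against 4731 and 767; in WSD/CD minus CD/CD it gave 414 and 313, against 190 and 1003, and in WSD/WSD minus CD/CD 1309 and 997, against 1655 and 428. No paired analysis was possible because the labels give no replicate numbers; those used here were given in accession order and pair no animals.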
